A study of Homo sapiens with 8 samples.

Results

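The 7 genes described here encode ligands and receptors of signalling routes beside FLT3, and H3K27me3 around their starts was compared in MOLM14 leukaemia cells with and without FLT3 inhibition. They are GAS6 and its receptor gene AXL, CXCL12 and its receptor gene CXCR4, HGF and its receptor gene MET, and the growth factor gene FGF2. The list was given as genes whose signalling can let leukaemia cells outlive FLT3 inhibitors. No measured value of these libraries entered its rule, but its members were chosen with earlier results of these data known. All 7 genes could be placed. For each gene, all deposited peaks within 5 kb and within 25 kb of the gene start were taken, with starts on GRCh37 known to 1 kb. This gave 82 peaks of the 467243 in the 4 deposited lists: 21 in DMSO 1, 28 in AC220 1, 14 in DMSO 2 and 19 in AC220 2.

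The MOLM14 line was established from a human acute myeloid leukaemia and has an internal tandem duplication in FLT3, the tyrosine kinase receptor that drives growth of blood progenitors. All groups were MOLM14 cells exposed for 24 h to AC220 (quizartinib, an inhibitor of FLT3) or to DMSO, its solvent, and all held added Drosophila S2 cells. The 8 samples comprise 2 immunoprecipitated libraries per treatment, each with 1 peak list, and 4 inputs that were not analysed here. One cell line without a matched normal cell limits what the groups can stand for, and peak lists hold no expression against which its identity could be checked. The libraries of number 2 listed 2.55 times the covered length of number 1 with DMSO and 2.59 times with AC220, and AC220 lists were 17.2% and 15.9% shorter than the DMSO lists of the same number. Values are therefore given for each library and within each number. Read depth is unknown, and nothing in the labels tells whether libraries of a treatment came from separate cultures, so p-values measure only the spread between these libraries.

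H3K27me3 is trimethylation of lysine 27 of histone H3, written by the Polycomb repressive complex PRC2 and found over silent developmental and lineage genes, often centred on CG-rich promoters. GAS6 activates the receptor tyrosine kinase AXL, CXCL12 is the chemokine that holds blood progenitors in the marrow through CXCR4, and HGF activates the receptor tyrosine kinase MET. FGF2 acts on FGF receptors and is made by marrow stroma, as is CXCL12. These routes are known as sources of survival signals that do not pass through FLT3.

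The genes fell into those with a broad peak over the start in every library and those with little or no peak nearby, so the promoter sequences of both kinds are shown. Each line gives RefSeq bases (GRCh38.p14) before the most upstream listed start of the gene, on its own strand, with every CG pair in capitals. The first 3 belong to genes with a peak over the start in all 4 libraries and the last 2 to genes with no peak within 25 kb in any.
CXCL12 (chr10:44385098-44385347, minus strand, 250 bases): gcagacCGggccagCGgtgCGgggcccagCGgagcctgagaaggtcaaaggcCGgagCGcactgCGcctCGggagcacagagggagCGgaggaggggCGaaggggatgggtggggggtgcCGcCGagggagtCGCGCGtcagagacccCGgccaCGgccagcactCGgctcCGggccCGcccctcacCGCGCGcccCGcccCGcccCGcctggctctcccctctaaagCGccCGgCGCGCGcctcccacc
MET (chr7:116671946-116672195, plus strand, 250 bases): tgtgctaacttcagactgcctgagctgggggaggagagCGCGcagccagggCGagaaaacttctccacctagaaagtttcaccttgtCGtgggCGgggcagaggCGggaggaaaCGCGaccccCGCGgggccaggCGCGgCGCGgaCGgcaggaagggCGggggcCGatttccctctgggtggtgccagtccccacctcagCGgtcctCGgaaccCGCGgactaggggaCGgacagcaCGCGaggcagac
FGF2 (chr4:122826581-122826681, plus strand, 101 bases that lie before the annotated span of the gene): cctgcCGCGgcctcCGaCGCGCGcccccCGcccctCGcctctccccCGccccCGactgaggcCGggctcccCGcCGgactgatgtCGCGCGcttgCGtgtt
CXCR4 (chr2:136118150-136118399, minus strand, 250 bases): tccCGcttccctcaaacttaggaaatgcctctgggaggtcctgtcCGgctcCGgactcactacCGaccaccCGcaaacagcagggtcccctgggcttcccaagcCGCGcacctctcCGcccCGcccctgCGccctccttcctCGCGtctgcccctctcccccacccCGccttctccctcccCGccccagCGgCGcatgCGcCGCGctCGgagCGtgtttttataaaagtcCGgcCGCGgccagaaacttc
HGF (chr7:81770048-81770297, minus strand, 250 bases): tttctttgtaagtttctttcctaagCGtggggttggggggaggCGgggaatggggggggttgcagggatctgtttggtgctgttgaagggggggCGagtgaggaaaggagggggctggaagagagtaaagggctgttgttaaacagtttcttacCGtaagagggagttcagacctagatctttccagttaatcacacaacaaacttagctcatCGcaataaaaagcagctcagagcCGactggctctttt

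The letters CG read the same on both strands, and 93.9% of the 35116 RefSeq promoters hold at least 1 CG in these 250 bases, with a median of 11. FGF2 had 33 CG pairs in its 250 bases, CXCL12 and GAS6 had 31 each, and MET and CXCR4 had 24 each. For FGF2 only the 101 bases printed, with 17 CG pairs, lie before the annotated span of the gene, so its count is not fully like the others. HGF had 6 and AXL had 4, below the median. As few as 8.15% of promoters had at least as many as FGF2, 10.9% as many as CXCL12 and GAS6, and 23.7% as many as MET and CXCR4, against 61.9% for HGF and 70.7% for AXL. The 3 genes with a peak over the start thus all had CG-rich promoters, but so did CXCR4 and GAS6, which had no such peak. MET and CXCR4 had the same number of CG pairs and lay at opposite ends of the coverage scale. A CG count is a description of these letters, positions in this paragraph and the one before are on another build than the peaks, and the genes are too few for a test.

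**Figure D1:**
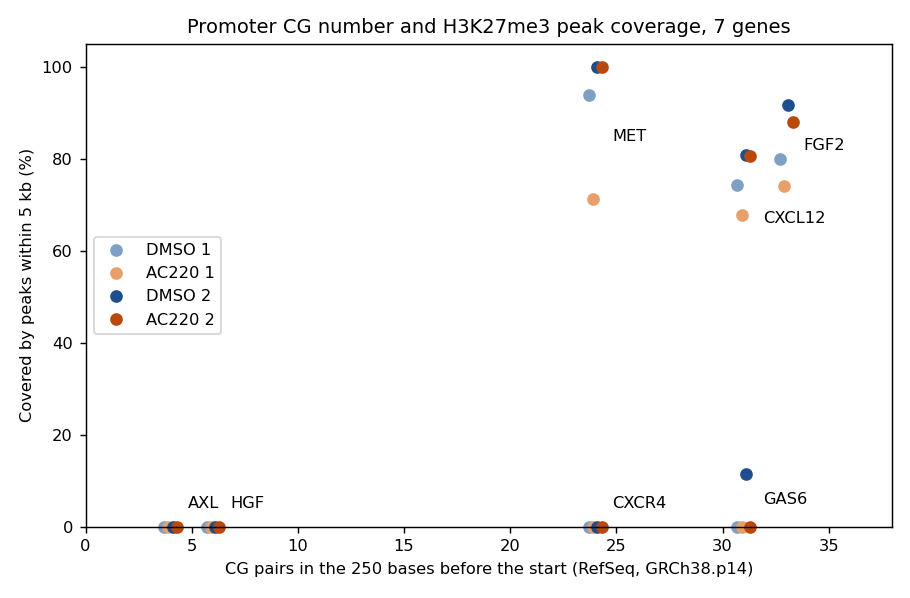
Number of CG pairs in the 250 bases before the start (x axis) against the percentage of the 10 kb around the start inside listed peaks (y axis), 1 point per library for each of 7 genes, shifted slightly sideways to separate the libraries. MET and CXCR4 share 24 CG pairs, with 71.4% to 100% covered for MET and 0% for CXCR4. For FGF2 only 101 of the 250 bases lie before the annotated span of the gene.

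The covered share, meaning the percentage of the bases of a window that lie inside listed peaks, separated the genes into 3 states within 5 kb of the start. MET, FGF2 and CXCL12 were covered over at least 67.8% of the window in all 4 libraries. AXL, CXCR4 and HGF had no peak in any library, and GAS6 had 1 short peak in DMSO 2 alone. Of all 303618 windows of 10 kb on chromosomes 1 to 22 and X, unassembled gaps included, 58.8% had no peak in any library and 3.39% were at least 50% covered in every library, against 3 of 7 genes in each of these classes. Within 25 kb the same 3 genes had no peak. There 41.5% of 50 kb windows had none, and 11.1% were at least 20% covered in every library, again against 3 of 7 genes. The background windows were placed without regard to genes, so they are not matched to windows centred on gene starts. A window without a listed peak is not shown to lack the mark, since lists leave out signal below their threshold.

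**Figure D2:**
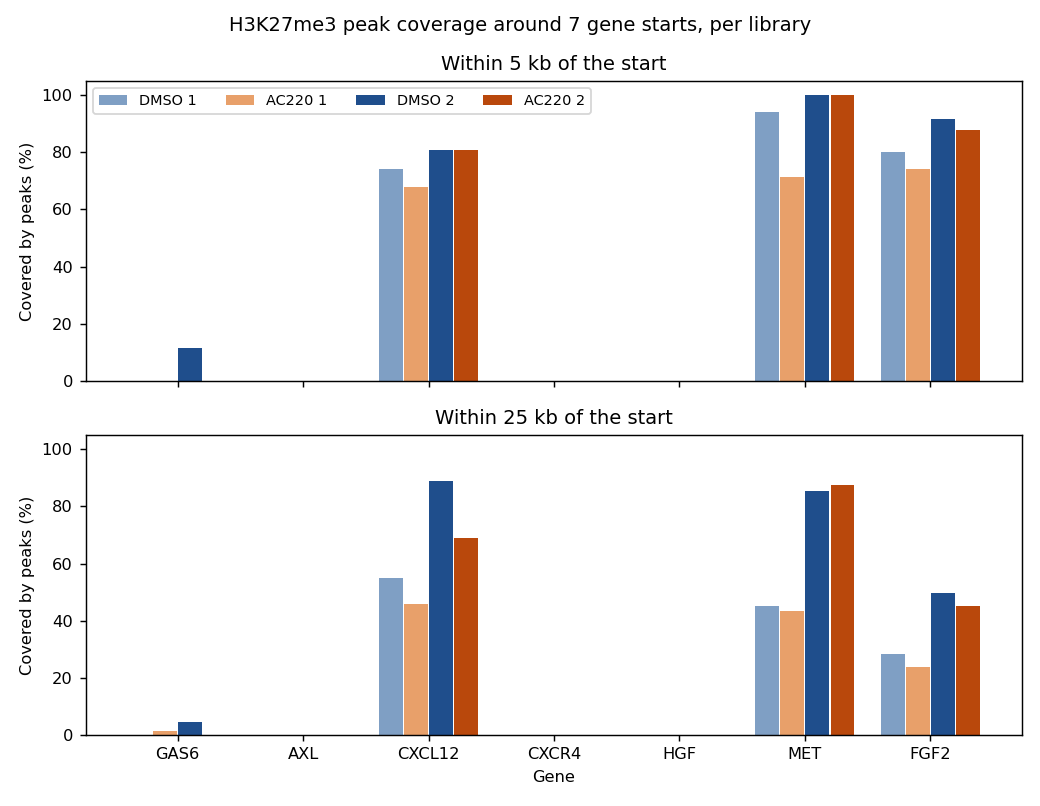
Percentage of the window within 5 kb (top) and within 25 kb (bottom) of each start that lies inside listed H3K27me3 peaks, 1 bar per library, for 7 genes. FGF2, CXCL12 and MET were covered in every library, GAS6 reached at most 11.5%, and AXL, CXCR4 and HGF were at 0%.

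Among the receptors, AXL, the receptor tyrosine kinase activated by GAS6, had no peak within 25 kb of its start on chromosome 19 (19q13.2, window 41700001 to 41750000, GRCh37). Its nearest peak lay upstream in every library, at 48.0 kb in DMSO 2, 51.2 kb in AC220 2, 87.8 kb in DMSO 1 and 125 kb in AC220 1. Those peaks were short, between 0.278 and 1.48 kb. Within 250 kb of the AXL start the covered share was 14.8% in DMSO 1, 14.5% in AC220 1, 27.1% in DMSO 2 and 26.3% in AC220 2. The surroundings of AXL were thus marked farther out, by less than 1 percentage point less with AC220 in both numbers.

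CXCR4, which encodes the chemokine receptor of CXCL12, lay in a longer stretch without peaks (2q22.1, window 136851001 to 136901000). No library listed a peak within 100 kb of its start. The nearest peaks were all upstream, at 285 kb in DMSO 1, 271 kb in DMSO 2, 238 kb in AC220 1 and 214 kb in AC220 2. The AC220 peaks were 0.305 and 0.296 kb long and lay at different positions.

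MET, the receptor tyrosine kinase for HGF, was the receptor gene with broad coverage. The peak over its start (7q31.2) ran from 116306462 to 116316400 in DMSO 1 (9.94 kb), from 116309053 to 116314880 in AC220 1 (5.83 kb), from 116296274 to 116329134 in DMSO 2 (32.9 kb) and from 116295720 to 116329305 in AC220 2 (33.6 kb). In number 1 the peak reached 5.54 kb upstream and 4.40 kb into the gene with DMSO, against 2.95 and 2.88 kb with AC220. Separate AC220 1 peaks followed upstream at -6.35 to -4.50 kb and in the gene at 4.19 to 5.17 kb. Both ended beyond the DMSO 1 edges, so the closer AC220 1 edges belong to 1 listed peak and do not bound its listed coverage. The edges in number 2 differed little between treatments, with 15.7 and 16.3 kb upstream and 17.1 and 17.3 kb downstream. Only 1.62% of all DMSO 2 peaks and 0.685% of all AC220 2 peaks were at least as wide, against 2.56% in DMSO 1 and 5.41% in AC220 1.

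Within 5 kb of the MET start the covered share was 94% in DMSO 1, 71.4% in AC220 1, 100% in DMSO 2 and 100% in AC220 2. AC220 1 was the low library, and the treatments overlapped. Means were 97% ± 4.24 for DMSO and 85.7% ± 20.2 for AC220 (SD, n = 2; p = 1 by a two-sided exact permutation test). Within 25 kb the shares were 45.1%, 43.4%, 85.5% and 87.4% in the same order, 1.65 points lower with AC220 in number 1 and 1.90 points higher in number 2. These were 65.3% ± 28.6 and 65.4% ± 31.1 on average (SD, n = 2; exact permutation p = 1). The smallest two-sided p that 2 libraries against 2 allow is 0.333. The 5.83 kb of the AC220 1 peak over the start were covered in all 4 libraries, and no base within 25 kb was covered in both libraries of a treatment and in neither of the other.

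Among the ligands, GAS6, which activates AXL, had few and weak peaks (13q34, window 114542001 to 114592000). DMSO 2 listed 1 peak of 1.15 kb from 114567811 to 114568964, 0.81 kb upstream of the start, with an authors' -log10 q of 1.25, and another farther upstream, from 114580277 to 114581431. AC220 1 listed 1 peak of 0.597 kb, 22.1 kb upstream, and DMSO 1 and AC220 2 listed none within 25 kb. The covered share within 25 kb was 0% in DMSO 1, 1.19% in AC220 1, 4.62% in DMSO 2 and 0% in AC220 2. The direction was opposite in the 2 numbers, and no peak of any library lay in the first 25 kb of the gene itself. Within 5 kb it was 5.77% ± 8.16 with DMSO, from DMSO 2 alone, and 0% in both AC220 libraries (SD, n = 2; exact permutation p = 1).

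HGF, the ligand of MET, likewise lay far from any listed peak (7q21.11, window 81374001 to 81424000). No library listed a peak within 250 kb of its start. The nearest lay upstream at 251.05 kb in both number 2 libraries, at 255 kb in DMSO 1 and at 262 kb in AC220 1; CXCR4 lay farther from a peak in both DMSO libraries and HGF in both AC220 libraries. On chromosome 7 the ligand HGF was thus without listed peaks and its receptor MET was covered, while for the chemokine pair the ligand CXCL12 was covered and the receptor CXCR4 was not.

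CXCL12, the marrow chemokine, lay in a densely marked region (10q11.21). The peak over its start ran from 44869574 to 44881835 in DMSO 1 (12.3 kb), from 44873219 to 44881777 in AC220 1 (8.56 kb), from 44870427 to 44882665 in DMSO 2 (12.2 kb) and from 44869927 to 44883069 in AC220 2 (13.1 kb). It was asymmetric in every library: it reached 1.78 to 3.07 kb upstream and 6.78 to 10.4 kb into the gene. Upstream it was followed by a gap of 1.19 kb (44883070 to 44884255) that no library covered, and downstream by one of 1.56 kb (44868016 to 44869573). The upstream edge differed by 0.058 kb between treatments in number 1, where the edge in the gene lay 3.65 kb closer to the start with AC220. AC220 1 listed further peaks in the gene at 7.7 to 8.1 kb and at 9.05 to 10.1 kb. This edge is thus that of a single listed peak and not the end of listed coverage. In number 2 both edges lay farther out with AC220, at 3.07 against 2.67 kb upstream and 10.1 against 9.57 kb in the gene.

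Within 5 kb of the CXCL12 start the covered share was 74.3% in DMSO 1, 67.8% in AC220 1, 80.9% in DMSO 2 and 80.7% in AC220 2. It was 6.53 points lower with AC220 in number 1 and 0.16 points lower in number 2, and the treatments overlapped. Means were 77.6% ± 4.63 for DMSO and 74.2% ± 9.14 for AC220 (SD, n = 2; p = 0.667, exact permutation test). The difference was wider over 25 kb, where the shares were 55.1%, 45.8%, 89.1% and 68.9% in the same order. AC220 was 9.28 points lower in number 1 and 20.1 points lower in number 2, with means of 72.1% ± 24.0 and 57.4% ± 16.3 (SD, n = 2; exact permutation p = 0.667). The difference between treatments was smaller than the SD of either, which takes in the longer lists of number 2. In all, 18.3 kb of these 50 kb were covered in every library, 1.52 kb in both DMSO libraries alone and 0 kb in both AC220 libraries alone. A mixed pair, DMSO 2 with AC220 1, alone covered 1.55 kb.

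FGF2, a ligand of FGF receptors, carried a peak with most of its length inside the gene (4q27). It ran from 123744994 to 123754296 in DMSO 1 (9.30 kb), from 123746352 to 123752685 in AC220 1 (6.33 kb), from 123743829 to 123765078 in DMSO 2 (21.3 kb) and from 123744208 to 123759910 in AC220 2 (15.7 kb). Its downstream edge lay 6.30 kb (DMSO 1), 4.69 kb (AC220 1), 17.1 kb (DMSO 2) and 11.9 kb (AC220 2) from the start. The upstream edge lay 1.65 to 4.17 kb away. The peak was shorter with AC220 in both numbers, though pieces listed separately followed it in AC220 2 at 12.9 to 13.7 kb and at 15.3 to 16.5 kb. AC220 1 likewise listed separate pieces at 5.55 to 6.19 kb and, upstream, at -3.7 to -2.7 kb. The peak over the FGF2 start had an authors' -log10 q above 3 in every list, which the start peaks of MET and CXCL12 had in number 2 alone.

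Within 5 kb of the FGF2 start the covered share was 80.1% in DMSO 1, 74.1% in AC220 1, 91.7% in DMSO 2 and 87.9% in AC220 2. AC220 was 5.99 and 3.79 points lower than DMSO in numbers 1 and 2. Within 25 kb the shares were 28.2%, 23.6%, 49.6% and 45.0%, or 4.62 and 4.54 points lower with AC220. Means were 85.9% ± 8.24 and 81.0% ± 9.79 within 5 kb and 38.9% ± 15.1 and 34.3% ± 15.1 within 25 kb (SD, n = 2; exact permutation p = 0.667 for each). Both differences were smaller than the spread between libraries of a treatment. That spread takes in the longer lists of number 2, so the SD and this p do not measure the spread of the differences within numbers. With each DMSO list trimmed to the covered length of its AC220 list, strongest peaks kept, the difference within 25 kb was -0.438 points, and in number 2 AC220 was 2.52 points higher. Coverage lay on the gene side of the start: over the 25 kb downstream it was 44.5%, 33.7%, 71.8% and 63.9%, and over the 25 kb upstream 12.03%, 13.6%, 27.3% and 26.1%. MET and CXCL12 were covered on both sides, at 34.0% to 90.4% of each 25 kb.

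**Figure D3:**
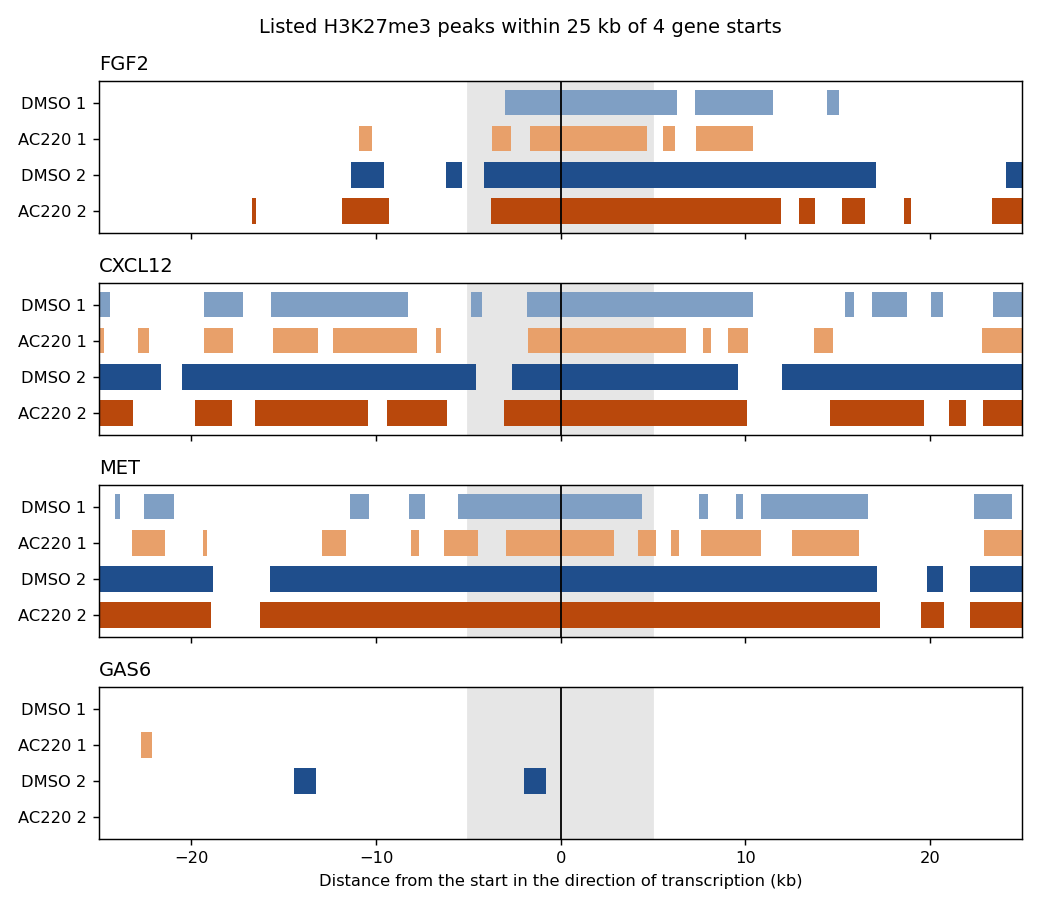
Listed peaks of each library (rows) within 25 kb of the starts of FGF2, CXCL12, MET and GAS6, against distance from the start in the direction of transcription (kb); the vertical line is the start and the grey band the 5 kb to either side. The start of FGF2, CXCL12 and MET lies inside a peak in all 4 libraries, and that of GAS6 in none.

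The counts of genes with lower coverage were set against all windows. FGF2 and CXCL12, 2 of the 4 genes with a peak, were lower with AC220 in both numbers within 5 kb and within 25 kb, and no gene was higher in both. Of 10 kb windows with a peak in any library 26.4% were lower in both numbers, and of 50 kb windows 39.5%. Of the 3 genes at least 50% covered within 5 kb in every library 2 were lower in both numbers, against 16.4% of the 10289 windows of 10 kb covered as well. CXCL12 was lower there by only 0.16 points in number 2. With the window shifted by 1 kb it was 4.04 points higher (lower positions) or 10.2 points lower (higher positions). Windows fully covered in both libraries of a number cannot be lower, and the median difference of the 10289 windows in number 2 was 0 points. Of the 3 genes at least 20% covered within 25 kb 2 were lower, against 50.6% of 6717 windows of 50 kb. In no gene did the treatments separate without overlap at either width, against 4.47% of 10 kb and 1.99% of 50 kb windows with a peak. The mean differences rest on balanced numbers. Without DMSO 2 that of FGF2 was 0.935 points within 5 kb and 6.08 within 25 kb, and that of CXCL12 was 2.27 and that of MET 20.3 within 25 kb. Without AC220 1 the 2 FGF2 values were 2.04 and 6.12, that of CXCL12 was 3.12 within 5 kb, and those of MET were 3 and 22.1. With 3 or 4 genes these counts are a description and no result about the genes as a list.

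CXCL12, FGF2 and MET were then compared over wider windows. The smaller of the CXCL12 differences in the 2 numbers was 9.28 points within 25 kb, and 9.94% of the 6717 windows of 50 kb with at least 20% covered in every library were lower by as much in both numbers; the same share was 25.8% for FGF2, and MET was not lower in both numbers at this width. Within 100 kb of the CXCL12 start, peaks covered 45.9% (DMSO 1) against 33.3% (AC220 1), and 76.5% (DMSO 2) against 61.5% (AC220 2). Within 250 kb it was 33.6% and 22.2%, and 64.2% and 51.4%. These widths were added after the values within 25 kb had been seen. The smaller CXCL12 difference was 12.6 points within 100 kb, and 2.36% of the 1569 windows of 200 kb with at least 20% covered in every library were lower by as much in both numbers. For 500 kb windows the figure was 2.66% of 526, at 11.4 points. All these shares rank differences in points, and windows covered near 20% have less room to fall than CXCL12. The limit of 20% also held for the AC220 libraries, so windows below it with AC220 were left out. That can make large differences rarer among the ranked windows. CXCL12 itself passed the limit with 22.2% in AC220 1 within 250 kb. Within 25 kb only 2.60% to 6.84% of all 50 kb windows were covered as much as CXCL12 in the same library. The ranked windows came from the lists as deposited, in which the whole AC220 lists were 17.2% and 15.9% shorter. With each DMSO list trimmed to the covered length of its AC220 list, CXCL12 within 25 kb differed by -8.09 points in number 1 and -20.1 in number 2. No rank was taken on trimmed lists, and the cause was not tested. MET was also lower in both numbers at these widths, by 7.24 and 8.38 points within 100 kb and by 2.11 and 9.60 points within 250 kb, as much as in 14.3% and 46.4% of those windows. Of the well covered windows 61.2% at 200 kb and 68.1% at 500 kb were lower in both numbers. For CXCL12 the treatments still overlapped at both widths (exact permutation p = 0.667), because number 2 was higher than number 1 throughout. FGF2 was lower in both numbers as well, by 1.69 and 1.79 points within 100 kb and by 0.846 and 0.920 points within 250 kb, where its coverage was at most 20.6% and 11.3%.

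**Figure D4:**
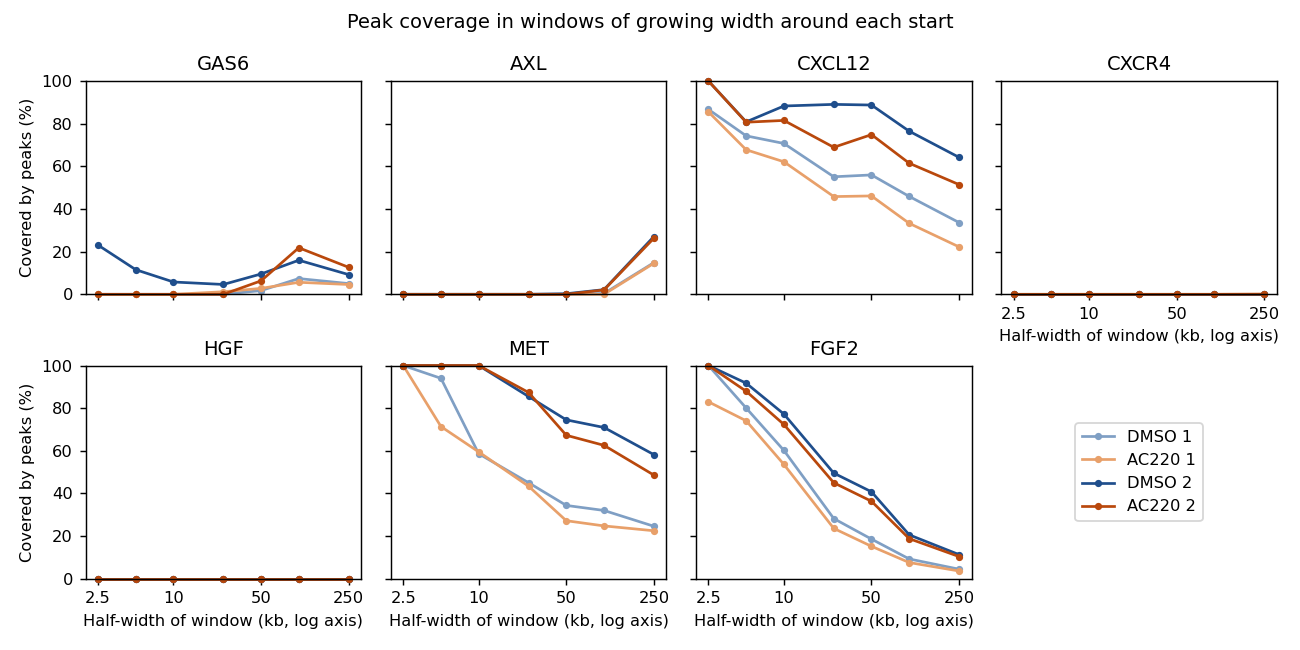
Percentage inside listed peaks (y axis) in windows of 2.5 to 250 kb to either side of each start (x axis, log scale), 1 line per library. The CXCL12 lines of AC220 lie below those of DMSO of the same number from 25 to 250 kb, and HGF stays at 0% throughout.

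The number of listed peaks was higher with AC220 in both numbers at FGF2 and CXCL12 alone. FGF2 had 3 peaks within 25 kb in DMSO 1 against 5 in AC220 1, and 4 against 7 in number 2. CXCL12 had 9 and 11, and 4 and 8. MET had 9 and 11 in number 1 and 4 in each library of number 2. GAS6 had 0 and 1 in number 1 and 2 and 0 in number 2, and AXL, CXCR4 and HGF had none. Of windows of 50 kb with at least 20% covered in every library, 37.0% had more peaks with AC220 in both numbers, against FGF2 and CXCL12 of these 3 genes, and 3.02% had fewer. The mean in those windows was 7.36 peaks in DMSO 1, 8.18 in AC220 1, 3.84 in DMSO 2 and 5.32 in AC220 2. Of the 21 DMSO 1 peaks near the 7 genes, 13 had at least 50% of their length inside AC220 1 peaks, and 17 of the 28 AC220 1 peaks lay likewise inside DMSO 1 peaks. In number 2, 11 of 14 DMSO peaks lay inside AC220 peaks and 17 of 19 AC220 peaks inside DMSO peaks. Across numbers, 20 of the 21 DMSO 1 peaks lay likewise inside DMSO 2 peaks and 18 inside AC220 2 peaks. Of the 14 DMSO 2 peaks, 6 lay inside DMSO 1 peaks and 5 inside AC220 1 peaks. The same shares over whole lists were not computed, so these counts are not read as a difference between treatments. A domain can be listed as 1 peak or as several, so the number of peaks is no count of domains.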

How the data were processed

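H3K27me3 was mapped by chromatin immunoprecipitation and sequencing. Per the submitters' processing notes the tools were BWA 0.7.10-r789 and MACS2 2.1, without settings. One broad peak list was deposited for each immunoprecipitated library, so libraries were not pooled. The deposited columns hold a score, a fold enrichment (a ratio, over a background whose source is not given), and -log10 p and -log10 q of each peak. All of these are the authors' values within a list, and the smallest -log10 q was 1.00. How inputs and Drosophila reads were used, and the build, are not given in the sources used here. No peak ran past a GRCh37 chromosome end, whereas on 13 or 14 of 24 chromosomes peaks ran past the GRCh38 end (lengths from GenomeInfoDb 1.38.1; bands from circlize 0.4.16).

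Starts came with the list, rounded to 1 kb; with no GRCh37 annotation at hand, further genes of these pathways were not analysed here. Covered shares were computed in Python 3.11.15 using numpy 2.4.6, pandas 2.3.3 and, for figures, matplotlib 3.10.9. Treatments were compared by an exact permutation test over the 6 assignments of the 4 libraries. Chromosomes 1 to 22 and X were tiled into windows of equal size as background; the limits of 50% and 20% for well covered windows were set after the data had been seen. All 7 genes are named. The members and lists were chosen with earlier results of these data known. Coverage functions were tested on simulated data. Alternatives were a stricter q, trimmed lists, joined peaks, shifted or other windows, a replicate block and leaving out each library. Lists hold no read counts, so no counting interval is given.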

Additional observations from a re-analysis of the deposited data

How the results depend on the processing

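FGF2 within 5 and 25 kb and CXCL12 within 25 kb stayed lower with AC220 on average under all alternatives that kept the 4 libraries. The smallest mean difference was -0.438 points, for FGF2 within 25 kb with DMSO lists cut to the covered length of the AC220 list of the same number. Some of these averages rest on a single number. With -log10 q of at least 3, CXCL12 within 25 kb was at 0% in both libraries of number 1. In 2.5 kb to either side FGF2 was at 100% in both libraries of number 2. CXCL12 within 5 kb (-3.35 points) turned to 1.73 with all lists trimmed to the shortest and also 1.73 with the window shifted by 1 kb to lower positions. MET within 5 kb (-11.3) became 0.435 in 10 kb to either side, and 0 in 2.5 kb or with -log10 q of at least 3. MET within 25 kb (0.126) became -4.74 with -log10 q of at least 2, -0.861 with peaks less than 1 kb apart joined, -1.29 with the window shifted by 1 kb to lower positions, and -7.20, -7.81 and -5.85 in 50, 100 and 250 kb to either side. GAS6 became 0 at both widths with -log10 q of at least 2 or 3 and, within 5 kb, with trimmed lists. Within 25 kb GAS6 (-1.71) became 0.597 under either trimming, 2.04 in 100 kb and 1.49 in 250 kb. AXL, at 0, became -0.139, -0.273 and -0.546 in 50, 100 and 250 kb, and CXCR4 0.0601 in 250 kb. The cause was not tested.

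Leaving out 1 library unbalances the numbers. The range was then -11.8 to 2.04 points for FGF2 within 5 kb and -15.3 to 6.12 within 25 kb, -9.81 to 3.12 and -31.7 to 2.27 for CXCL12, -25.6 to 3 and -21.9 to 22.1 for MET, and -11.5 to 0 and -4.02 to 0.597 for GAS6. Each positive value came without DMSO 2 or without AC220 1. With a replicate block the differences are the same (-4.89 points for FGF2 and -3.35 for CXCL12 within 5 kb), and 2 pairs cannot give an exact p below 0.5. Same-numbered libraries deviated together across windows (correlation 0.590 at 10 kb and 0.842 at 50 kb). The lists of number 2 were longer with both treatments, and such a correlation can come from list length. It therefore cannot show whether same-numbered libraries were paired. At an overlap of 80% in place of 50%, 5 of 21 DMSO 1 peaks lay in AC220 1 peaks. Of the same peaks, 20 lay in DMSO 2 peaks and 17 in AC220 2 peaks. Depth is unknown, so an unlisted region cannot be told apart from one too shallow to call.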
